A study of Rattus norvegicus with 8 samples.

Results

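The synaptotagmins are a family of membrane and vesicle proteins built on a pair of C2 domains, and 10 of them (Syt1, Syt2, Syt3, Syt4, Syt5, Syt7, Syt11, Syt12, Syt13 and Syt17) were examined in primary hippocampal neurons of Sprague-Dawley rat embryos. The genes were taken by symbol, and all 10 were found among the 28909 symbols of the count table. Neurons had been plated on porous filter inserts, so that somata stayed on the upper side while axons and dendrites grew through to the lower side, and total RNA of each compartment was sequenced after ribosomal RNA depletion. Cultures received picrotoxin (PTX), a blocker of GABA-A receptors that raises network activity, or ethanol vehicle for 48 h between 18 and 20 days in vitro. The 4 groups were somata control, somata PTX, processes control and processes PTX, with 2 libraries in each. As nothing states that the libraries came from separate cultures, the p-values measure the spread between these libraries, which may be technical.

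In the typical synaptotagmin, calcium binding lets the C2 domains engage membrane phospholipids and the SNARE complex, and this couples calcium entry to vesicle fusion. Syt1 and Syt2 are the fast sensors of synchronous transmitter release, whereas Syt7 binds calcium with higher affinity and slower kinetics and serves asynchronous release and facilitation. Other members bind little or no calcium and act in vesicle trafficking, endocytosis or dense-core vesicle release. The comparisons ask where in the neuron the mRNA of each paralog lay and how it responded to prolonged activity.

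Libraries held between 12290890 and 18455662 counts. Genes of the mitochondrial genome took 22.6% to 26.7% of the counts in somata and 68.5% to 72.5% in processes, which left fewer counts for nuclear genes in processes. The 10 synaptotagmins together received 22823 to 31223 counts in a somata library and 8372 to 10107 in a process library. Levels are CPM, counts scaled to a common library total after TMM factors, which align the bulk of genes between libraries, and differences were tested across 14309 genes by the quasi-likelihood test of edgeR with Benjamini-Hochberg adjustment at 0.05. Of the 10 members, 9 passed the filter on low counts. Transcript lengths were not at hand, and levels of different genes are therefore not ranked against each other. All 5 neuron markers listed (Rbfox3, Map2, Tubb3, Nefl and Dcx) passed the filter, and astrocyte RNA was also abundant, with 7 astrocyte markers summing to 2756 to 4077 CPM in somata and 10788 to 14255 CPM in processes. In such bulk samples, fewer cells of a type and less RNA per cell cannot be told apart.

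Syt2, the fast calcium sensor of many inhibitory terminals, was the member that did not pass the filter. It was counted 27 and 12 times in the somata control libraries and 19 and 15 times in the somata PTX libraries. In processes it was counted 3 and 2 times in control and 3 and 1 times after PTX. Its mRNA was thus barely sampled in any library, and no difference was tested. Pvalb, which marks the interneuron class best known for Syt2, was similarly low, between 0.14 and 1.26 CPM. The other inhibitory neuron markers listed were not, with somata control means of 77.6 CPM for Gad1, 134 for Gad2, 28.7 for Slc32a1 and 46.9 for Sst. A link of these markers to the level of Syt2 was not tested.

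Of the 9 members tested, 8 differed between compartments in control cultures (6 lower and 2 higher in processes). Among all tested genes, 47.7% passed in this comparison (21.9% lower and 25.8% higher in processes), so a call by itself is common here. With the replicate number as a block, a fit described with the PTX results, 9 of 9 passed, against 57.8% of all genes. In PTX cultures 7 of the 9 members passed, 5 lower and 2 higher in processes, against 49.8% of all genes (24% lower and 25.7% higher), and with the block 9 of 9 against 59.5%. The libraries of the compartments did not overlap for 9 of 9 members in control and 8 of 9 in PTX cultures, where 74.9% and 75.9% of all genes were so separated. The members had a median log2 fold change of -0.65 in control and -0.82 in PTX cultures, where the median over all tested genes was -0.05 in both. No single direction held for the family, as the members ranged from -1.16 to 0.95 in control cultures.

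**Figure D1:**
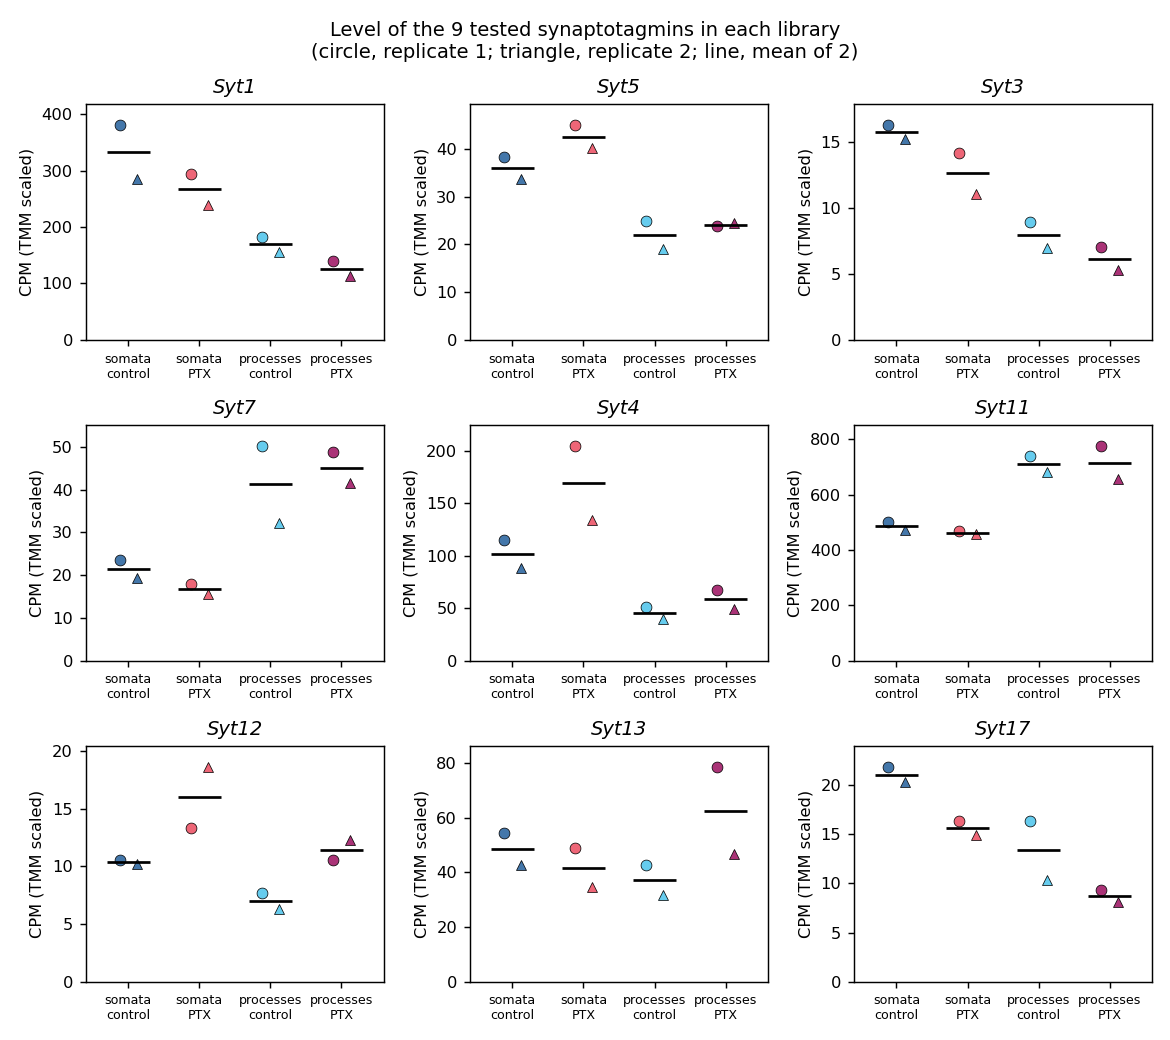
Level of each of the 9 tested synaptotagmins in CPM after TMM scaling (y axis, linear from 0, a scale of its own for each gene) in the 4 groups (x axis), where circles are replicate 1, triangles replicate 2 and lines the mean of 2 libraries. Syt7 and Syt11 sit higher in all 4 process libraries than in any somata library, while Syt1, Syt3, Syt4 and Syt5 sit lower.

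Syt7, the slow high-affinity sensor, was measured at 23.5 and 19.3 CPM in the somata control libraries and at 50.2 and 32.3 CPM in the processes control libraries. After PTX the values were 18 and 15.5 CPM in somata and 48.8 and 41.5 CPM in processes. All 4 process libraries therefore lay above all 4 somata libraries. The log2 fold change in processes against somata was 0.95 in control (standard error 0.194, adjusted p = 0.00237, edgeR quasi-likelihood test) and 1.42 in PTX cultures (standard error 0.195, adjusted p = 0.000165), which corresponds to 1.93-fold and 2.68-fold. Leaving out single libraries in turn, the control value ranged from 0.60 (without replicate 1 of processes control) to 1.23 (without replicate 2 of processes control), and it passed each time.

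Syt11, which carries a serine in place of a calcium-binding aspartate in its first C2 domain and is known for a role in endocytosis, was the other member higher in processes. Its levels were 501 and 471 CPM in somata control and 468 and 457 CPM in somata PTX. In processes they were 739 and 682 CPM in control and 775 and 655 CPM after PTX. The compartments did not overlap, with a log2 fold change of 0.55 in control (standard error 0.125, adjusted p = 0.00442) and 0.63 in PTX cultures (standard error 0.125, adjusted p = 0.00184). The summed astrocyte markers moved with these differences, with 3651 to 4077 CPM in somata control and 12694 to 14255 CPM in processes control, and so did the summed neuron markers, with 1482 to 1599 CPM and 5079 to 5267 CPM. The largest part of each sum was 1 gene, Gfap (log2 value 2.60) for the astrocyte markers and Map2 (2.30) for the neuron markers. Gfap was at 1588 and 1781 CPM in somata control and at 11111 and 9382 CPM in processes control. Of the 7 astrocyte markers 3 were higher and 2 lower in processes (Slc1a3 with -0.56 and Gja1 with -0.38), and of the 5 neuron markers 2 were higher and 1, Tubb3, lower (-0.57). Their part in the differences of Syt7 and Syt11 was not tested.

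The position of Syt7 and Syt11 on the process side is relative to the typical gene. Scaled by library size only, where the median of all tested genes moved to -1.86 in control and -1.87 in PTX cultures, Syt7 had a log2 fold change of -0.88 and -0.41 and Syt11 of -1.26 and -1.21. Both stayed above the median gene at that scaling.

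Syt4, which shares the serine substitution of Syt11 and whose gene is known to be induced by activity, had the lowest log2 fold change of the 9 tested members between compartments. It was measured at 115 and 88.3 CPM in somata control and at 51.4 and 39.6 CPM in processes control, and at 205 and 134 CPM in somata PTX against 67.7 and 49.4 CPM in processes PTX. Every process library was below every somata library. The log2 fold change was -1.16 in control (standard error 0.23, adjusted p = 0.00199) and -1.53 in PTX cultures (standard error 0.228, adjusted p = 0.000282), so that the level in processes was 0.448 and 0.345 of that in somata. Although Syt4 and Syt11 form the closest pair by their substitution, their mRNAs thus lay on opposite sides of the compartment comparison.

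Syt1 and Syt3 showed almost the same profile over the libraries. Syt1 was measured at 380 and 285 CPM in somata control, 293 and 240 CPM in somata PTX, 183 and 155 CPM in processes control and 140 and 113 CPM in processes PTX. Syt3, a calcium-binding member that has been placed at postsynaptic membranes, was measured at 16.3 and 15.2 CPM in somata control, 14.2 and 11.1 CPM in somata PTX, 8.92 and 6.93 CPM in processes control and 7 and 5.33 CPM in processes PTX. For both genes the order of the 4 groups was the same, with the highest levels in somata control and the lowest in processes PTX. In PTX cultures the log2 fold change in processes against somata was -1.08 for Syt1 (standard error 0.174, adjusted p = 0.000482) and -1.04 for Syt3 (standard error 0.199, adjusted p = 0.00144), and in control cultures it was -0.98 for Syt1 (standard error 0.173, adjusted p = 0.000962) and -0.99 for Syt3 (standard error 0.192, adjusted p = 0.00175). Among the 9 members, Syt1 and Syt3 were the closest to each other, with a Euclidean distance of 0.262 between their centred log2 CPM and a Pearson's r of 0.987 over the 8 libraries, which share compartment and treatment and are thus a description only.

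Syt5, a calcium-binding relative of Syt1 found on dense-core vesicles and listed in RefSeq with the older name SytIX, was also lower in processes. Its levels were 38.4 and 33.7 CPM in somata control, 45 and 40.2 CPM in somata PTX, 25 and 19 CPM in processes control and 23.8 and 24.5 CPM in processes PTX. No process library reached a somata library. The log2 fold change was -0.71 in control (standard error 0.145, adjusted p = 0.00237) and -0.82 in PTX cultures (standard error 0.143, adjusted p = 0.000816).

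The 3 remaining members are not thought to act as calcium sensors, and their compartment differences were smaller or less certain. Syt17, which lacks the usual membrane anchor, was measured at 21.8 and 20.3 CPM in somata control and 16.4 and 10.3 CPM in processes control. It had a log2 fold change of -0.65 in control (standard error 0.188, adjusted p = 0.0151) and -0.85 in PTX cultures (standard error 0.198, adjusted p = 0.00485), and the control difference did not pass without replicate 1 of somata control (adjusted p = 0.07) or without replicate 2 of processes control (0.113), where it was -0.36. Syt12, a vesicle protein phosphorylated by protein kinase A, was measured at 10.6 and 10.2 CPM in somata control and 7.69 and 6.34 CPM in processes control. Its log2 fold change of -0.57 in control (standard error 0.204, adjusted p = 0.0408) did not pass when any of the 4 control libraries was left out, with adjusted p-values from 0.0649 to 0.213 over those 4 fits. In PTX cultures the value was -0.48 (standard error 0.185, adjusted p = 0.0514), which passed when blocked by replicate number (0.0122) and when replicate 1 of somata PTX was left out (0.0149).

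Syt13 was the member whose compartment difference had a different sign in control and in PTX cultures. It was measured at 54.4 and 42.6 CPM in somata control and 42.6 and 31.6 CPM in processes control. After PTX the values were 48.9 and 34.5 CPM in somata and 78.5 and 46.7 CPM in processes. The control libraries of the compartments almost touched, and the PTX libraries overlapped. The log2 fold change in processes against somata was -0.39 in control (standard error 0.253, adjusted p = 0.231) and 0.58 in PTX cultures (standard error 0.247, adjusted p = 0.0722), neither of which passed. With the replicate number as a block both passed, with -0.40 (adjusted p = 0.00285) and 0.57 (adjusted p = 3.93e-05). Scaled by library size only, the PTX value was -1.26, which is above the median of all genes at that scaling.

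**Figure D2:**
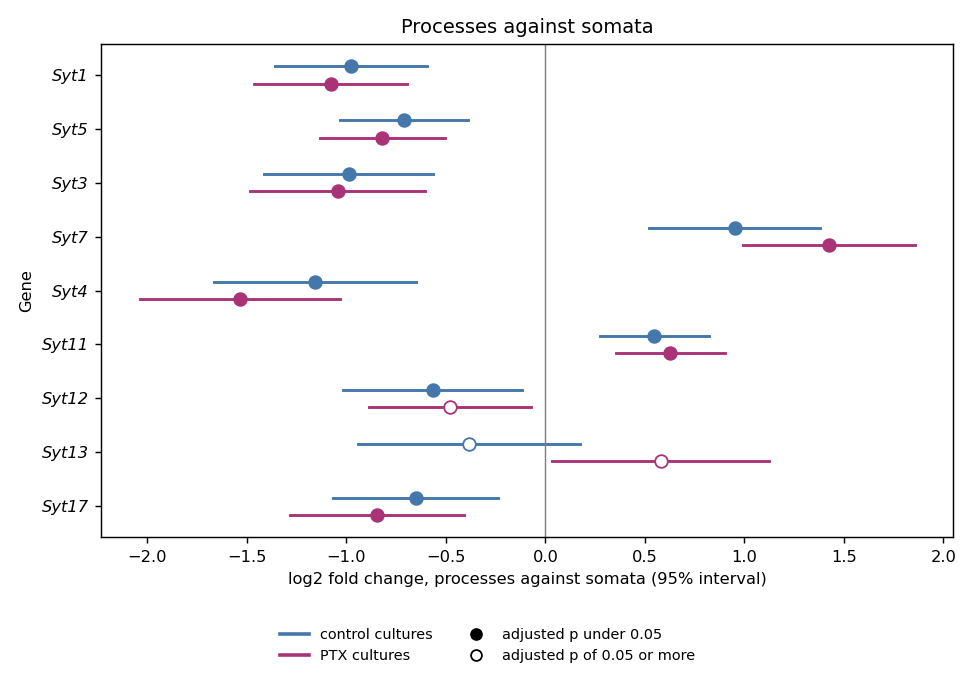
Log2 fold change in processes against somata (x axis) with its 95% interval for each of the 9 tested members (y axis) in control and PTX cultures, from the fit without the block, where filled points had an adjusted p under 0.05. Syt7 and Syt11 lie to the right of 0 in both kinds of culture, Syt13 lies on either side, and the other 6 lie to the left.

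The question of the PTX experiment is how the transcripts of each compartment respond to 48 h of raised activity. The answer for the synaptotagmins depended on whether the replicate number was used. Libraries with the same number deviated together in all 4 groups (r between 0.274 and 0.54 across genes for the 6 pairs of groups), and 7 of the 9 members were higher in replicate 1 than in replicate 2 in all 4 groups, against 16.7% of all tested genes. Without the number, 0 of the 9 members passed the edgeR quasi-likelihood test after PTX in somata (background 3.59% of all genes) and 0 of 9 in processes (3.74%). At an unadjusted p under 0.05 there were 3 and 4 members, where 15.6% and 16.6% of all genes were under it. The likelihood ratio test called 2 members in somata (Syt4 and Syt12) and 0 in processes, against 6.79% and 6.63% of all genes. DESeq2 called Syt4 in somata and Syt13 in processes, against 3.52% and 4.58%. With the number as a block, 5 of 9 members passed in somata (2 raised, 3 lowered) and 5 of 9 in processes (3 raised, 2 lowered). The background with the block was 14% of all genes in somata (7.21% raised, 6.79% lowered) and 11.2% in processes (5.1% raised, 6.09% lowered).

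These counts with the block rest on few libraries. In somata, 3 members passed without replicate 1 of somata control, 2 without replicate 2 of somata control, 2 without replicate 1 of somata PTX, and 1, Syt4, without replicate 2 of somata PTX, while 849 to 1176 of the 14309 genes passed in these 4 fits against 2002 with every library. In processes, 3 members passed without replicate 1 of processes control, and 1, Syt13, when either library of processes PTX was left out, while 676 to 900 genes passed in these 3 fits against 1601. By the overlap of libraries alone, 7 of 9 members were separated by PTX in somata and 4 of 9 in processes, where 49% and 42.4% of all genes were.

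**Figure D3:**
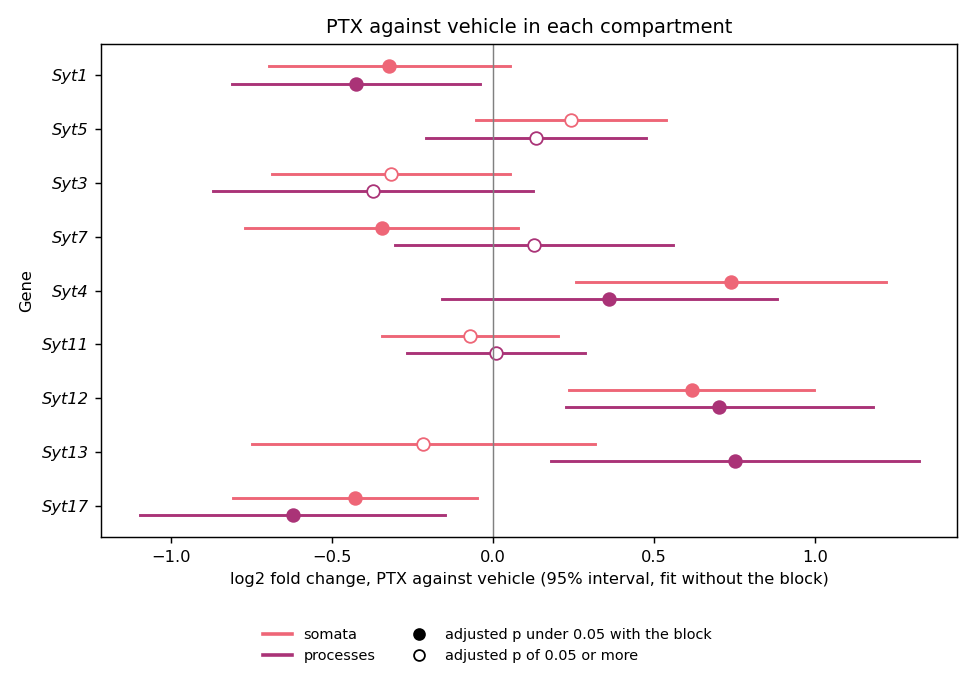
Log2 fold change with PTX against vehicle (x axis) in somata and processes for each of the 9 tested members (y axis), with 95% intervals of the fit without the block, where points are filled if the adjusted p was under 0.05 with the replicate number as a block. Syt4, Syt5 and Syt12 lie above 0 in both compartments, Syt1, Syt3 and Syt17 lie below 0 in both, and Syt7, Syt11 and Syt13 lie on opposite sides.

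Among the 9 tested members, Syt4 had the lowest adjusted p in somata with the block, while without it that of Syt12 was lower. Its level of 115 and 88.3 CPM in somata control compared with 205 and 134 CPM after PTX, and the groups did not overlap. In processes the values of 51.4 and 39.6 CPM in control and 67.7 and 49.4 CPM after PTX overlapped, since replicate 1 of the control lay above replicate 2 of PTX. Compared within a number, the log2 difference in somata was 0.83 for number 1 and 0.60 for number 2, and in processes 0.40 and 0.32. With the block Syt4 rose in somata by 0.72 on the log2 scale (standard error 0.0886, adjusted p = 3.02e-06) and in processes by 0.36 (standard error 0.105, adjusted p = 0.027). Without the block the values were 0.74 (standard error 0.218, adjusted p = 0.101) and 0.36 (standard error 0.235, adjusted p = 0.501), and the somata value was 0.39 when replicate 1 of somata PTX was left out and 1 when replicate 2 was.

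The start of the Syt4 gene is shown beside those of 3 other tested members because Syt4 is known to be induced through cyclic AMP and calcium signalling, for which the CRE half-site is the classical binding sequence. Its letters CGTCA were searched on both strands, where they read TGACG on the other strand. The bases are from RefSeq (GRCr8), a later assembly than that of the counts, and each run holds 20 bases before the annotated start and 10 bases from it, with half-sites in capitals.
Syt4 (chr18:23320854-23320883, minus strand): ccctgtagCGTCAggattgCGTCAattcgg
Syt1 (chr7:46244204-46244233, minus strand): gggcggccagctgggaccagctggtggccc
Syt3 (chr1:104018104-104018133, plus strand): gaccggtccgcagcggctaggctcgtccac
Syt11 (chr2:176529766-176529795, minus strand): ttctgccgagggccattcggaaagaggcgg
In the full window from 250 bases before the start to 50 bases from it, Syt4 held 2 half-sites on the coding strand, which begin 12 bases and 1 base before the start, and the windows of Syt1, Syt2, Syt3 and Syt11 held 0. A half-site was found in 21.2% of the 33469 promoter windows and at least 2 in 4.96%, while the full palindrome TGACGTCA, which contains both forms of the half-site, was in none of these 5 members and in 1.83% of all windows. These matches describe letters in a window and say nothing on binding in these cultures. The 5 members Syt5, Syt7, Syt12, Syt13 and Syt17 had no entry.

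Syt12 moved the same way in both compartments. In somata the levels of 10.6 and 10.2 CPM in control compared with 13.3 and 18.6 CPM after PTX, and in processes 7.69 and 6.34 CPM with 10.6 and 12.3 CPM. The groups were separate in both compartments, and number 2 differed more than number 1 (0.86 against 0.33 in somata and 0.94 against 0.45 in processes on the log2 scale). With the block Syt12 rose in somata by 0.61 on the log2 scale (standard error 0.137, adjusted p = 0.00319) and in processes by 0.69 (standard error 0.201, adjusted p = 0.0255). Without it the adjusted p was 0.0834 and 0.114, and the somata value was 0.83 when replicate 1 of somata PTX was left out and 0.35 when replicate 2 was. The counts behind these values were low in processes, with 54 and 69 in control and 92 and 122 after PTX.

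Syt1 and Syt17 were lower after PTX in both compartments when fitted with the block. The Syt1 libraries of control and PTX overlapped in somata and were separate in processes. Syt1 had log2 differences of -0.38 and -0.25 for numbers 1 and 2 in somata and of -0.39 and -0.46 in processes. With the block it fell in somata (log2 value -0.31, standard error 0.0889, adjusted p = 0.018) and in processes (-0.43, standard error 0.0947, adjusted p = 0.00349), while the adjusted p without the block was 0.421 and 0.25. Without the block, the somata value was -0.10 when replicate 1 of somata control was left out and -0.53 when replicate 2 was. Syt17 was measured at 21.8 and 20.3 CPM in somata control and 16.4 and 14.9 CPM in somata PTX, and at 16.4 and 10.3 CPM in processes control and 9.3 and 8.14 CPM in processes PTX. The groups were separate in both compartments. With the block the log2 fold change was -0.43 in somata (standard error 0.118, adjusted p = 0.0146) and -0.61 in processes (standard error 0.175, adjusted p = 0.0238), and without it the adjusted p was 0.246 and 0.162. Without the block, the value in processes was -0.25 when replicate 1 of processes control was left out and -0.91 without replicate 2 of processes control (adjusted p = 0.0317).

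Syt7 was called in somata only, and this does not show a difference between compartments. It was measured at 23.5 and 19.3 CPM in somata control and at 18 and 15.5 CPM in the PTX libraries. With the block it differed by -0.35 on the log2 scale (standard error 0.11, adjusted p = 0.0359), and without it the adjusted p was 0.452. The value without the block was -0.20 when replicate 1 of somata control was left out and -0.49 when replicate 2 was. In processes the PTX libraries, at 48.8 and 41.5 CPM, lay between the control libraries at 50.2 and 32.3 CPM. The interaction, in which the somatic response is subtracted from that of processes, was 0.47 (standard error 0.273, adjusted p = 1) and, when blocked, 0.49 (standard error 0.158, adjusted p = 0.336).

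Syt3, Syt5 and Syt11 did not pass in either compartment with or without the block. For Syt11 the 95% interval of the log2 fold change was -0.35 to 0.20 in somata and -0.27 to 0.28 in processes, the narrowest of the 9 members in somata. Syt5 had an interval of -0.05 to 0.54 in somata and -0.21 to 0.47 in processes. The interval of Syt3 was -0.68 to 0.05 in somata and -0.87 to 0.13 in processes. Changes of this size could not be told from 0 at this depth and replication.

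Syt13 was the only member called, with the block, for a response that differed between compartments. In processes its level of 42.6 and 31.6 CPM in control compared with 78.5 and 46.7 CPM after PTX, and in somata 54.4 and 42.6 CPM with 48.9 and 34.5 CPM. The PTX libraries were separate from the control in processes and overlapped with it in somata. With the block Syt13 rose in processes by 0.73 on the log2 scale (standard error 0.11, adjusted p = 6.01e-05), whereas in somata the value was -0.23 (standard error 0.096, adjusted p = 0.126). Without the block, the value in processes was 0.33 when replicate 1 of processes PTX was left out and 1.08 when replicate 2 was. The interaction was 0.96 (standard error 0.146, adjusted p = 0.00368 with the block), and Syt13 was 1 of 15 genes among 14309 called for it, a background of 0.105%. Without the block the adjusted p of the interaction was 1 (log2 value 0.97, standard error 0.353, unadjusted p = 0.0199), and 0 of the 9 members and 0 of all genes (0%) passed it by the quasi-likelihood test, with 1 member and 572 genes at an unadjusted p under 0.05. The likelihood ratio test and DESeq2 each called 4 genes for the interaction, none of them a member. With the block, the call of Syt13 for the interaction was lost when replicate 1 of either processes group was left out.

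PTX also moved the markers of the neuron classes. The summed level of the 5 inhibitory neuron markers was 238 to 337 CPM in somata control and 413 to 542 CPM in somata PTX, and 134 to 173 CPM against 218 to 285 CPM in processes. That of the 4 excitatory neuron markers was 416 to 432 CPM in somata control and 275 to 297 CPM in somata PTX, and 722 to 967 CPM against 510 to 512 CPM in processes. The markers of a class did not all move the same way. In processes control the excitatory sum was mostly Camk2a, whereas in processes PTX the means of Camk2a and Slc17a7 were 246 and 251 CPM. By the quasi-likelihood test without the block, Camk2a fell in processes (log2 value -1.45, adjusted p = 0.00165), as did Neurod6 (-1.34, adjusted p = 0.00818). Slc17a7 rose there (0.73, adjusted p = 0.0172). Of the inhibitory markers Gad1 and Gad2 rose in somata (0.82 and 0.92, adjusted p = 0.0247 and 0.0328), while Slc32a1 had -0.02 (adjusted p = 0.976). Gad2 also rose in processes (0.92, adjusted p = 0.0384), where the other 3 tested did not pass. No marker of either class was at 0 in every library, though Pvalb was near it. The summed level of the 5 general neuron markers was 1482 to 1599 CPM in somata control and 1339 to 1396 CPM in somata PTX. In processes it was 5079 to 5267 CPM in control and 3861 to 4441 CPM after PTX, and Map2 was its largest part. Without the block, Rbfox3 fell in somata (-0.67, adjusted p = 0.0221, quasi-likelihood test), and the other 4 did not pass. In processes 0 of the 5 passed. When blocked, 3 of the 5 were lowered in somata and 4 in processes, where 6.79% and 6.09% of all genes were. Of the 7 astrocyte markers, Gja1 fell in somata without the block (-0.61, adjusted p = 0.0215), and 0 passed in processes. The part of these markers in the PTX differences of the members was not tested.

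To set the paralogs side by side without any scaling between libraries, the count of each member was divided by that of Syt1 in the same library. As Syt1 was itself lower in processes and, with the block, after PTX, the ratio of a gene that did not move would also be higher there, and the ratios describe balance with Syt1 only. Against Syt1, Syt7 had a log2 ratio of -4.02 to -3.89 in the 4 somata libraries and of -2.26 to -1.44 in the 4 process libraries. The ratio of Syt11 to Syt1 lay between 0.40 and 0.93 in somata libraries and between 2.01 and 2.54 in process libraries. For Syt4 the ratio was -1.73 to -1.69 in somata control and -0.84 to -0.52 in somata PTX, and -1.97 to -1.83 in processes control and -1.19 to -1.04 in processes PTX. The PTX libraries were separate from control in each compartment for Syt4, and likewise for Syt12 and for Syt5, which passed no PTX test. For Syt7, Syt11 and Syt13 they were separate in processes only. Syt3 kept its ratio to Syt1 within -4.54 to -4.23 in all 8 libraries. For Syt13 the ratio was -2.81 to -2.58 in the somata libraries, -2.29 to -2.10 in processes control and -1.27 to -0.83 in processes PTX.

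**Figure D4:**
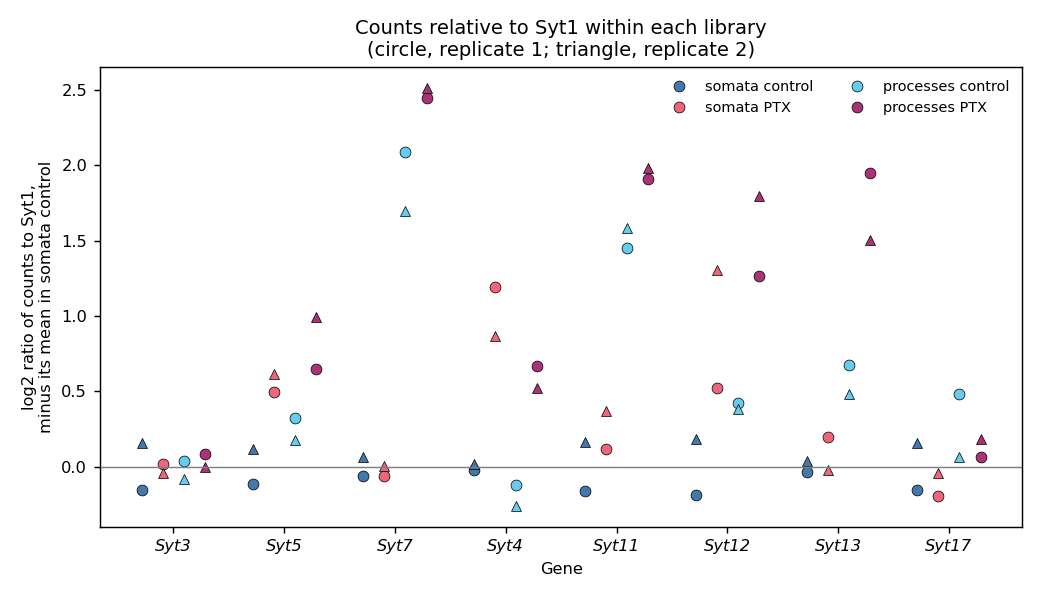
Log2 ratio of the count of each member to that of Syt1 in the same library, minus the mean of this ratio in somata control (y axis), for 8 members (x axis), where colours are the 4 groups, circles replicate 1 and triangles replicate 2. Syt3 stays near 0 throughout, Syt7 and Syt11 are raised in the process libraries, and Syt13 is highest in processes PTX. Syt4, Syt5 and Syt12 are higher in the PTX libraries than in the control libraries of the same compartment.

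The genes whose profile was most like that of Syt12, the member with the largest mean PTX effect over both compartments, were sought among 10208 genes whose mean level reached 5 CPM. The 3 nearest by Euclidean distance of centred log2 CPM over the 8 libraries were Pde4b, which encodes a cyclic AMP phosphodiesterase, with a distance of 0.327, the gene AABR07005985.2 with 0.347 and the linker histone gene Hist1h1a with 0.369. Pde4b was measured at 30 and 30.4 CPM in somata control, 43.5 and 50 CPM in somata PTX, 22.7 and 21 CPM in processes control and 36.6 and 39.1 CPM in processes PTX. Like Syt12 it was higher in somata and after PTX, which is a description only, since it was picked by its likeness over these same libraries.

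Of the 7 other synaptotagmins in the table, 5 passed the filter (Syt6, Syt9, Syt10, Syt14 and Syt16), while Syt8 and Syt15 had at most 1 and 7 counts in a library. Syt6, a member of the disulfide-linked subgroup with Syt3, Syt9 and Syt10, was the one synaptotagmin called after PTX by the quasi-likelihood test without the block. It was counted 136 and 107 times in somata control and 59 and 44 times in somata PTX, and it fell in somata (log2 fold change -1.31, standard error 0.266, adjusted p = 0.0219). In processes it was counted 30 and 22 times in control and 17 and 11 times after PTX, with a log2 fold change of -0.97 that did not pass (adjusted p = 0.215). Syt10, counted 48 and 24 times in somata control and 141 and 56 times in somata PTX, differed by 1.34 on the log2 scale (standard error 0.408, adjusted p = 0.116), and with the block it rose by 1.32 (adjusted p = 0.000487). Syt16 had a log2 fold change of 0.51 in somata (adjusted p = 0.154), and with the block it rose by 0.50 (adjusted p = 0.0054). Between compartments, 0 of these 5 passed in control cultures by the quasi-likelihood test without the block, against 47.7% of all genes. In PTX cultures 1, Syt10, passed and was lower in processes (log2 fold change -1.87, adjusted p = 0.0111), against 49.8% of all genes. With the block 2 of the 5 passed in each kind of culture, all lower in processes, against 57.8% of all genes in control and 59.5% in PTX cultures.

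Among 14 genes of the SNARE core and its regulators, 1 was raised and 1 lowered by PTX in somata (3.59% of all genes called) and 1 was lowered in processes (3.74%), by the quasi-likelihood test without the block. Unc13b, a vesicle priming factor, rose in somata with a log2 fold change of 0.76 (adjusted p = 0.00425), and Cplx2, a complexin that clamps and promotes fusion, fell in somata (-0.63, adjusted p = 0.0379) and in processes (-0.72, adjusted p = 0.023). Of 16 tested C2-domain and related exocytosis genes outside the family, Otof, a ferlin calcium sensor, fell in somata (-2.07, adjusted p = 0.000929) and in processes (-2.13, adjusted p = 0.00392), and Rph3a, a Rab3 effector with tandem C2 domains, rose in processes (1.12, adjusted p = 0.00302). Among 7 tested vesicle proteins that bind synaptotagmins or share the vesicle, Syn1, which tethers vesicles to actin, fell in processes (-0.76, adjusted p = 0.0229), and the other 6 did not pass there. Between compartments in control cultures, 8 of the 14 SNARE genes were higher and 3 lower in processes, where 25.8% of all genes were higher and 21.9% lower. The median log2 fold change of the 14 was 0.61, against -0.05 over all genes.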

How the data were processed

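Ribosome-depleted total RNA was sequenced from 8 libraries, 2 for each of 4 groups taken from the sample labels. By the study's methods, reads were trimmed (Trimmomatic), mapped by the authors to rat genome Rnor 6.0 with Subread subjunc, and counted by featureCounts with sums per gene symbol, while the labels name STAR as aligner. The deposited values are raw counts for 28909 symbols. The deposited tables of the authors' own PTX comparisons (fold changes, mean levels and p-values) were not used. Symbols merge gene copies, and reads of overlapping genes are of uncertain origin.

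Genes with more than 20 counts in at least 2 libraries were kept. TMM factors, a fit of all 8 libraries with 1 coefficient per group, and quasi-likelihood tests came from edgeR 4.0.16 (R 4.3.3), with adjustment over all 14309 genes. Standard errors are the log2 fold change over the square root of F, and log2 CPM used a prior count of 2. In ratios to Syt1, 0.5 was added to each count. A median tested gene had 287 counts in a somata library and 101 in a process library.

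The replicate numbers were taken to pair the libraries, since replicate deviations correlated across genes in all 6 pairs of groups (r between 0.274 and 0.54). Nothing states what the numbers mark. The block lowered the common dispersion from 0.0132 to 0.00459. The alternatives included DESeq2 1.42.0, edgeR's likelihood ratio test, other scalings and filters, only the 4 libraries compared, the block, and leaving out each library, where the lone library is assumed to vary like the others. Leaving out libraries within the block was added after the data were seen.

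All 10 members are named, along with the other synaptotagmins, up to 3 called genes per list and PTX comparison (without the block), and the 3 genes nearest to the member with the largest mean PTX effect. Members and lists were chosen with earlier results of these data known. Of the 10 members, 5 matched RefSeq promoter windows.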

Additional observations from a re-analysis of the deposited data

Results flagged for a closer look

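Syt13 was picked out because, with the replicate number as a block, its response to PTX was called as different between the compartments. In the blocked fit, the response in processes exceeded that in somata by 0.964 on the log2 scale (standard error 0.146, adjusted p = 0.00368, edgeR quasi-likelihood test), and without the block it was 0.97 with an adjusted p of 1. Number 1 gave PTX differences of -0.15 in somata and 0.88 in processes, and number 2 gave -0.30 and 0.56.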

How the results depend on the processing

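For PTX in somata, where 0 of 9 members passed, the likelihood ratio test called 2 (6.79% of all genes), DESeq2 1 (3.52%), library size only 1 (3.43%), no filter 2 (5.04%) and the replicate block 5 (14%). For PTX in processes, also with 0, DESeq2 called 1 (4.58%), no filter 4 (4.98%) and the block 5 (11.2%). The interaction gave 1 member with no filter (0.0441%) and 1 with the block (0.105%). The cause of these shifts was not tested. Leaving out single libraries, with or without the replicate block, changed in most comparisons how many members passed and how many of all genes did. Such counts rest on a lone library in 1 group and are not read as a trait of the members. Without the block, the log2 value of Syt13 for the interaction ranged from 0.55 to 1.3 over these fits. The counts for the compartments stayed within 1.5 times under the alternatives run, while the share of all genes called moved more. In control it ran from 32.8% (no filter) to 94.1% (library size only), and in PTX cultures from 33.9% to 94.3% with the same settings. With library size only, the signs of Syt7 (-0.875 in control, -0.407 in PTX cultures), Syt11 (-1.26 and -1.21) and Syt13 (-1.26 in PTX cultures) turned, as the median gene moved to -1.86 and -1.87. Over 756 single values under the alternatives, 41 passed that had not, 7 no longer passed, and 19 that stayed uncalled changed sign. The summed level of the members averaged 1058 CPM per library, 2235 with mitochondrial genes left out and 1275 with library size only. Nuclear depth limits the process libraries most, where Syt3, Syt12 and Syt17 had 53 to 147 counts.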
